A study of Mus musculus with 6 samples.

Results

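The genes described here are 8 genes of neural crest glia and Schwann cells, taken as a list of names: Ngfr, Sox8, Sox10, Foxd3, Erbb3, Cdh19, Fabp7 and Mbp. All 8 were measured among the 21938 genes of the deposited table, and no filter on low values was applied. The libraries hold RNA of mouse embryos at E14.0, taken from the soft palate, which lies behind the bony palate and contains muscle. There were 3 mutant libraries (replicates 5, 6 and 7), which carry Osr2-Cre on homozygous floxed β-catenin alleles, and 3 control libraries (replicates 1, 2 and 3), which per the protocol carry the same floxed alleles without the Cre. The genotype field of the controls reads wild type, and the protocol's description is used here. Osr2-Cre is a recombinase driven from the Osr2 locus and so acts in the cells where Osr2 is active, among them the palatal mesenchyme. The labels do not say whether a library came from 1 embryo or a pool, and the p-values measure only the spread between these libraries, which may be technical.

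Schwann cells, the glia of peripheral nerves, arise from neural crest cells that migrate along growing axons as Schwann cell precursors. The transcription factor Sox10 is needed for this lineage, and axons keep the precursors alive by presenting neuregulin to the ErbB receptors on their surface. Myelin genes are switched on later, as immature Schwann cells wrap axons, so an embryonic palate is expected to hold nerves with precursors and immature glia rather than mature myelin.

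The depth and the cell type markers of the libraries frame what follows. Estimated from the spacing of low values, the libraries held 12272470 to 15088599 reads in the mutants and 10017877 to 12842011 in the controls, so a gene with no read could lie at up to 0.199 to 0.299 CPM (counts per 1000000 reads), which 3 reads are worth, as far as counting error goes. Ctnnb1, which encodes β-catenin, averaged 599.8 ± 29.1 CPM in the mutants and 718.1 ± 59.0 CPM in the controls (SD, n = 3 each). All 3 mutants were below all controls for Ctnnb1, as for 10.8% of all genes. Its log2 change of -0.26 ± 0.10 (SE) did not pass after adjustment (limma, unadjusted p = 0.0281, adjusted p = 0.183). Osr2 itself fell, with 16.1 ± 3.22 CPM in the mutants and 46.9 ± 11.2 CPM in the controls (log2 change -1.47 ± 0.20, limma, adjusted p = 0.0285). The Cre is driven from the Osr2 locus and only the mutants carry it. An effect of the Cre allele on Osr2 RNA and an effect of losing β-catenin therefore cannot be told apart. Like every call over all genes, that of Osr2 was lost in the fits that called 0 genes, which were those without a trend in the prior variance and without mutant replicate 5 or 6 or control replicate 1 or 3. The summed level of 13 neuron markers differed widely within the mutants, at 988.5, 219.6 and 355.5 CPM in replicates 5, 6 and 7, against 622.8, 660.8 and 1144 CPM in control replicates 1, 2 and 3. Mutant replicate 5 thus stood with the controls in neuronal RNA, and the other 2 mutants lay below all of them. All 9 palatal mesenchyme markers were measured above 0 in every library, with a median log2 change of -0.20 and 1 call, that of Osr2. Meox2, a mesenchymal homeobox factor, averaged 36.3 ± 16.3 CPM in the mutants and 61.7 ± 22.7 CPM in the controls (adjusted p = 0.239, limma).

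Of the 8 genes, 1 changed between mutant and control, and it fell: Ngfr. The test was limma on log2(CPM + 1) with p-values adjusted over all genes. Of all genes, 0.479% passed it at an adjusted p below 0.05 in either direction, and 0.283% of all genes passed lower in the mutant. Ngfr and Sox8 were the 2 genes whose mutant libraries all lay below all controls, a pattern seen lower in the mutant for 10.8% of all genes and in either direction for 27.8%. The other 6 genes overlapped between the groups. At an unadjusted p below 0.05 the same 2 genes, Ngfr and Sox8, were lower and 0 were higher, where 21.4% of all genes passed in either direction and 8.07% were lower. In the whole set 6 of the 8 log2 changes were below 0 and the median was -0.34, where the median of all genes was 0.04. Because these are bulk libraries, fewer cells of a type and less RNA per cell cannot be told apart.

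**Figure D1:**
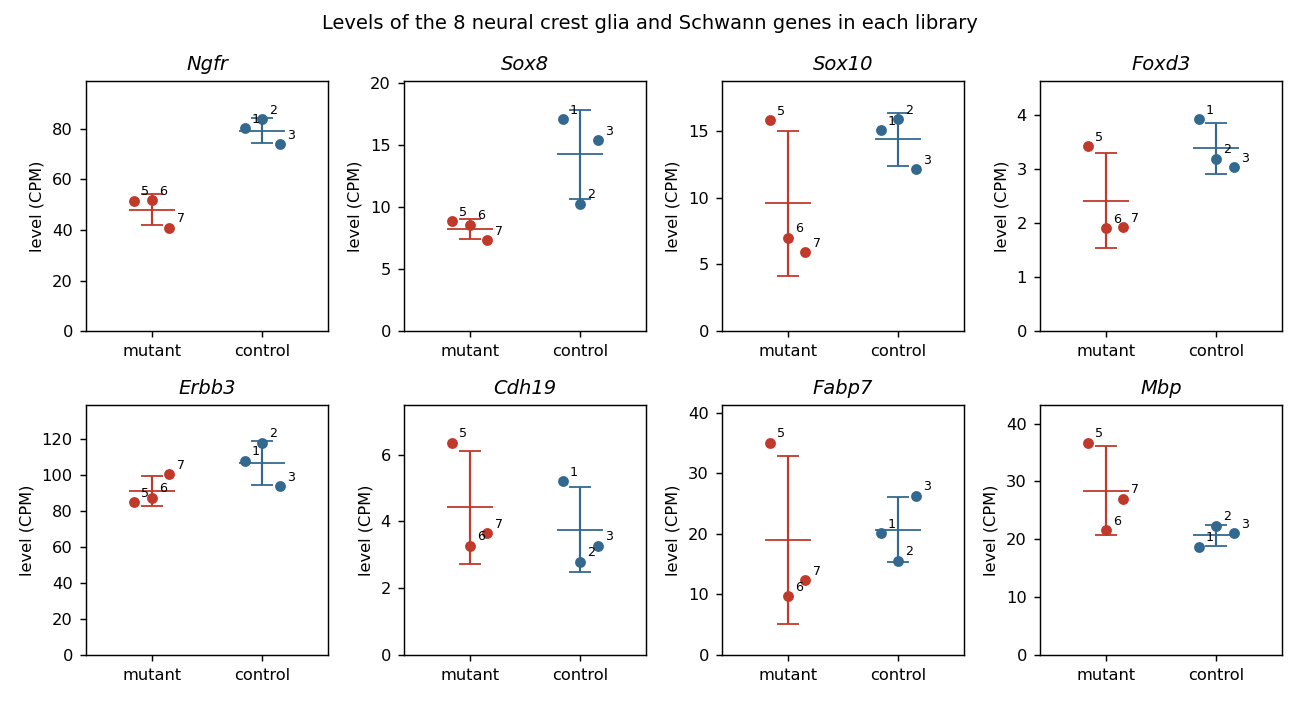
Level in CPM (vertical axes, from 0) of each gene in each library, mutants left in red and controls right in blue, with the replicate number beside each point, the mean as a bar and the SD as whiskers. Ngfr and Sox8 separate the groups, and mutant replicate 5 is the highest of the mutants for Sox8, Sox10, Foxd3, Cdh19, Fabp7 and Mbp.

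Ngfr encodes the low-affinity neurotrophin receptor p75, a surface marker of neural crest cells and Schwann cell precursors that is also made by some mesenchymal cells. Ngfr (chromosome 11, 95568818 to 95587735, GRCm38, minus strand) measured 51.6, 51.7 and 40.9 CPM in mutant replicates 5, 6 and 7, against 80.2, 83.7 and 73.8 CPM in control replicates 1, 2 and 3. Every mutant was well below every control, and mutant replicate 5 did not stand apart from replicate 6. The mean of 48.1 ± 6.21 CPM in the mutants was 0.606 times the 79.3 ± 5.03 CPM of the controls (SD, n = 3 each). The log2 change was -0.72 ± 0.11 (SE; 95% interval -0.98 to -0.46), with an adjusted p of 0.0430 in limma over all genes. That call was close to the threshold, and it was lost without a trend in the prior variance (limma, adjusted p = 0.0866). It was also lost (limma, adjusted p) without mutant replicate 5 (0.0744), mutant replicate 6 (0.109), mutant replicate 7 (0.156), control replicate 1 (0.122) or control replicate 3 (0.0925), and kept without control replicate 2 (0.0494), while the log2 change stayed between -0.77 and -0.61. Of all genes 0.00912% passed without mutant replicate 7, and 0% without each of mutant replicates 5 and 6 and control replicates 1 and 3.

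Sox8 is a SoxE transcription factor, a close relative of Sox9 and Sox10, made in neural crest derivatives and also in myogenic cells of the mouse. Sox8 (chromosome 17, 25565892 to 25570686, GRCm38, minus strand) measured 8.88, 8.59 and 7.36 CPM in mutant replicates 5, 6 and 7, against 17.1, 10.3 and 15.4 CPM in control replicates 1, 2 and 3. The mutants were low and close together, while the controls spread widely and replicate 2 came nearest to the mutants. The log2 change of -0.69 ± 0.20 (SE; 95% interval -1.14 to -0.25) did not pass over all genes (limma, adjusted p = 0.109), and passed without control replicate 2 (-0.90, limma, adjusted p = 0.0390), a fit in which 2.06% of all genes passed. The antisense gene 2810468N07Rik overlaps the start of Sox8 by 329 bases on the opposite strand. No source used here states whether strand was counted, so reads of that stretch cannot be told apart, and the antisense gene was not analysed here.

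Skeletal muscle markers, like Ngfr and Sox8, were lower in the mutants. Of 10 markers, 5 were called lower and 0 higher in limma, where 0.283% of all genes were called lower. All 10 were lower at an unadjusted p below 0.05, as were 8.07% of all genes. For 9 of the 10, all mutants lay below all controls, as for 10.8% of all genes. The median log2 change was -1.32. In mutants 5, 6 and 7 their summed level was 1116, 1623 and 1263 CPM. In controls 1, 2 and 3 it was 4549, 2107 and 3096 CPM. Myog, the factor of muscle cell differentiation, averaged 21.6 ± 1.42 CPM in the mutants and 64.1 ± 15.3 CPM in the controls, Tnni1, a slow muscle troponin, 27.9 ± 1.23 CPM in the mutants and 73.5 ± 17.8 CPM in the controls, and Acta1, skeletal muscle actin, 121.9 ± 31.1 CPM in the mutants and 341.4 ± 71.1 CPM in the controls (SD, n = 3 each). All 3 were called, and these calls too were lost in the fits with 0 calls. Myod1, a myogenic regulator, measured 8.88, 10.2 and 9.81 CPM in mutants 5, 6 and 7, against 31.9, 18.5 and 28.1 CPM in controls 1, 2 and 3. Within the controls Sox8 had the same order as Myod1, with replicate 1 highest and replicate 2 lowest, and Ngfr had another order, with replicate 2 highest. Within the mutants Sox8 and Myod1 did not share an order, since replicate 5 was the highest for Sox8 and the lowest for Myod1. The part of muscle cells in the values of Ngfr and Sox8 was not tested.

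The promoters of Ngfr and Sox8 are shown because these are the 2 genes whose groups did not overlap, and that of Fabp7 for comparison. Each is the 250 bases before the gene's start in RefSeq (GRCm38.p6, the assembly of mm10), read on the gene's strand, and 4 of the 8 genes had such a sequence to read, the fourth being Foxd3. Capitals mark matches, on either strand, to the GC box GGGCGG bound by Sp factors, to the SOX core ACAAT and to the TCF/LEF core CTTTGA, through which β-catenin acts on its targets. No matches overlap one another.
Ngfr, chr11:95587699-95587948, minus strand: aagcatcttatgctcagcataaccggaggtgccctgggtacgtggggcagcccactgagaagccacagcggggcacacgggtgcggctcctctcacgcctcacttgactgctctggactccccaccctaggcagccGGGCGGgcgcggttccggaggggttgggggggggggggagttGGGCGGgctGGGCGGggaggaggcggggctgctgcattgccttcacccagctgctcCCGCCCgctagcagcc
Sox8, chr17:25570687-25570936, minus strand: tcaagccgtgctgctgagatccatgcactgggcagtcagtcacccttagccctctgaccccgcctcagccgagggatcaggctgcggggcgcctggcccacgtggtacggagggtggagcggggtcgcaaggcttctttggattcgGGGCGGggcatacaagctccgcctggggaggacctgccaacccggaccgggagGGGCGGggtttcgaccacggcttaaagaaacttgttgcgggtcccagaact
Fabp7, chr10:57784673-57784922, plus strand: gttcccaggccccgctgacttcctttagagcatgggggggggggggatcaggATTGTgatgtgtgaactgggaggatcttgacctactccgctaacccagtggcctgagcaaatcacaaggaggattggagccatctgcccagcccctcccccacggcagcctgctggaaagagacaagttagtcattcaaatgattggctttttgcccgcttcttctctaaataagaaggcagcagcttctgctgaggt
The Ngfr sequence held 4 GC boxes and the Sox8 sequence 2, while those of Fabp7 and Foxd3 held 0, and 32.7% of 32851 mouse promoter sequences of this length held at least 1. The SOX core was present in Fabp7 and not in the other 3, against 27.7% of all promoters. The TCF/LEF core was in 0 of the 4, against 13.8% of all promoters. A match is only a run of letters, and its absence here says nothing of sites elsewhere.

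Sox10 and Foxd3, the transcription factors of the early glial lineage, did not pass the test, and their mutant libraries disagreed. Sox10 (chromosome 15, 79154908 to 79165240, GRCm38, minus strand), the SoxE factor that specifies peripheral glia, measured 15.8, 6.99 and 5.90 CPM in mutant replicates 5, 6 and 7, against 15.0, 15.9 and 12.1 CPM in control replicates 1, 2 and 3. Mutant replicate 5 lay among the controls, and the other 2 mutants lay below all of them. Those values came from about 194, 92 and 89 reads in mutants 5, 6 and 7, with exact 95% Poisson intervals of 13.7 to 18.2, 5.64 to 8.58 and 4.74 to 7.26 CPM that cover counting error only, so the gap between mutant replicate 5 and the others was larger than counting error. The log2 change was -0.65 ± 0.31 (SE; 95% interval -1.34 to 0.05; limma, adjusted p = 0.263). It was -1.04 without mutant replicate 5 (adjusted p = 0.0862) and ranged to -0.40 without mutant replicate 7 (adjusted p = 0.594), both in limma.

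Foxd3, a forkhead factor that holds neural crest cells and Schwann cell precursors in an early state, showed a like split at a lower level. Foxd3 (chromosome 4, 99656299 to 99658622, GRCm38, plus strand) measured 3.42, 1.90 and 1.92 CPM in mutant replicates 5, 6 and 7, against 3.92, 3.19 and 3.04 CPM in control replicates 1, 2 and 3. Again mutant replicate 5 fell inside the range of the controls and the other 2 mutants did not. The log2 change was -0.38 ± 0.23 (SE; limma, adjusted p = 0.364), and -0.58 without mutant replicate 5. With 25 to 42 reads in each mutant and 32 to 49 in each control, the depth leaves wide counting intervals, 1.23 to 2.81 CPM in mutant replicate 6 and 2.47 to 4.63 CPM in mutant replicate 5, which overlap.

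Sox9, the third SoxE factor, which also drives cartilage, showed no such order: it measured 54.6, 82.1 and 108.2 CPM in mutants 5, 6 and 7, against 81.8, 63.0 and 58.3 CPM in controls 1, 2 and 3 (log2 change 0.23 ± 0.23, limma, adjusted p = 0.599). Among 13438 genes with a mean of at least 5 CPM, the 6 whose log2(CPM + 1) followed Sox10 most closely over the 6 libraries were Ccdc85a, Hsdl1, Scamp5, Magee1, Ptpro and Shc2, with Pearson's r of 0.993 to 0.985. Ptpro, a receptor tyrosine phosphatase, measured 13.5, 4.49 and 3.38 CPM in mutants 5, 6 and 7, against 12.4, 13.7 and 12.1 CPM in controls 1, 2 and 3. Such an r describes 6 libraries that share their mutant and control labels, and many genes reach high values over so few points.

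Erbb3 is the receptor through which Schwann cell precursors receive neuregulin, in partnership with Erbb2, and it is also made by epithelia. Erbb3 (chromosome 10, 128567523 to 128589652, GRCm38, minus strand) measured 85.0, 87.6 and 100.6 CPM in mutant replicates 5, 6 and 7, against 108.2, 118.1 and 94.0 CPM in control replicates 1, 2 and 3. Mutants 5 and 6 lay below all controls, and replicate 7 lay above control replicate 3. The log2 change was -0.22 ± 0.11 (SE; 95% interval -0.48 to 0.03; limma, adjusted p = 0.281), and unlike Sox10 its lowest mutant was replicate 5. Epithelial markers, 8 of 8 measured, had summed levels of 1717, 2471 and 2243 CPM in mutants 5, 6 and 7, against 1267, 2005 and 1838 CPM in controls 1, 2 and 3. None of the 8 was called in limma (0 lower and 2 higher at an unadjusted p below 0.05, as were 8.07% and 13.4% of all genes). All 8 log2 changes were above 0, with a median of 0.25. The smallest p belonged to Krt15, a basal keratin, which averaged 686.6 ± 106.9 CPM in the mutants and 451.2 ± 71.3 CPM in the controls (log2 change 0.60 ± 0.15, limma, adjusted p = 0.0910), and Krt18, a simple epithelial keratin, followed with 105.7 ± 23.4 CPM in the mutants and 72.2 ± 5.88 CPM in the controls (0.53 ± 0.15, adjusted p = 0.113). All 3 mutants were above all controls for both keratins, a pattern seen for 17.1% of all genes. Trp63, the factor of stratified epithelium, averaged 113.4 ± 21.8 CPM in the mutants and 83.4 ± 21.6 CPM in the controls (adjusted p = 0.238, limma). Epcam averaged 182.0 ± 38.5 CPM in the mutants and 154.2 ± 28.6 CPM in the controls, and Cdh1 298.6 ± 69.6 CPM in the mutants and 256.1 ± 83.1 CPM in the controls (SD, n = 3 each). The part of epithelium in the value of Erbb3 was not tested.

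The other genes of the neuregulin axis did not pass over all genes tested. Of 9 neuregulins, ErbB receptors and cleaving proteases, 0 were called in limma (1 lower and 1 higher at an unadjusted p below 0.05, as were 8.07% and 13.4% of all genes), with a median log2 change of 0.05. Nrg1, the ligand that axons present to Schwann cell precursors, measured 14.7, 11.5 and 14.4 CPM in mutants 5, 6 and 7, against 16.6, 15.5 and 17.1 CPM in controls 1, 2 and 3 (log2 change -0.27 ± 0.14, limma, adjusted p = 0.297). All 3 mutants were below all controls for Nrg1, as for 10.8% of all genes. Erbb2 averaged 141.5 ± 27.3 CPM in the mutants and 120.9 ± 18.9 CPM in the controls (adjusted p = 0.452, limma). Erbb4, another neuregulin receptor, measured 13.0, 9.35 and 7.82 CPM in mutants 5, 6 and 7, against 18.1, 11.6 and 16.8 CPM in controls 1, 2 and 3 (adjusted p = 0.179, limma). Nrg4, a further ligand, measured 1.76, 2.07 and 2.89 CPM in mutants 5, 6 and 7, against 0.725, 1.54 and 1.34 CPM in controls 1, 2 and 3 (adjusted p = 0.207, limma).

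Cdh19 and Fabp7 mark Schwann cell precursors and immature Schwann cells, and for both mutant replicate 5 was the highest of the 6 libraries. Cdh19, a cadherin of the lineage, measured 6.36, 3.27 and 3.64 CPM in mutant replicates 5, 6 and 7, against 5.20, 2.79 and 3.27 CPM in control replicates 1, 2 and 3. The groups overlapped, and the highest library of each, mutant 5 and control 1, stood above the rest. Its log2 change was 0.18 ± 0.27 (SE; 95% interval -0.44 to 0.80; limma, adjusted p = 0.741) and turned to -0.06 without mutant replicate 5. Fabp7 (chromosome 10, 57784881 to 57788450, GRCm38, plus strand), a fatty acid binding protein of immature glia that is also made by radial glia of the brain, measured 35.0, 9.73 and 12.3 CPM in mutant replicates 5, 6 and 7, against 20.2, 15.6 and 26.3 CPM in control replicates 1, 2 and 3. The mutants enclosed the controls on both sides, with replicate 5 above all of them and replicates 6 and 7 below. Its log2 change was -0.30 ± 0.41 (SE; 95% interval -1.22 to 0.62; limma, adjusted p = 0.706), and ranged between -0.83 without mutant replicate 5 and 0.05 without mutant replicate 6.

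Mbp, which encodes myelin basic protein and, from an upstream start, the Golli proteins of other cell types, had the largest positive change of the 8. It measured 36.7, 21.6 and 27.0 CPM in mutant replicates 5, 6 and 7, against 18.7, 22.4 and 21.0 CPM in control replicates 1, 2 and 3. Mutants 5 and 7 were above all controls, and mutant 6 lay within them. The log2 change was 0.41 ± 0.18 (SE; 95% interval -0.00 to 0.82; limma, adjusted p = 0.234), and 0.22 without mutant replicate 5. The annotation gives 16 transcripts for Mbp, and a value per gene does not tell the myelin transcripts from the Golli ones.

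**Figure D2:**
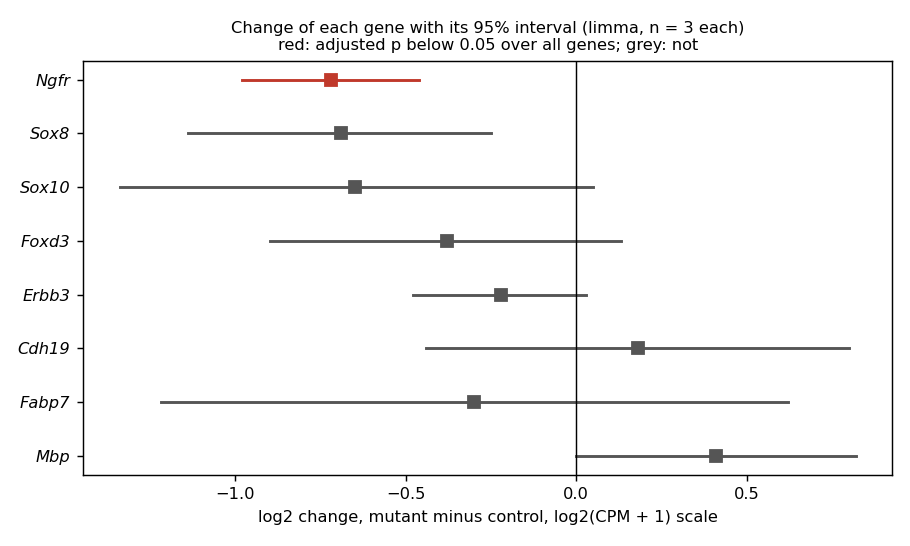
Log2 change of each gene, mutant minus control on the log2(CPM + 1) scale (horizontal axis), with its 95% interval from limma (3 libraries a group). Ngfr, in red, passed at an adjusted p below 0.05 and the 7 in grey did not; the interval of Sox8 also lies below 0, before adjustment for the number of genes.

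**Figure D3:**
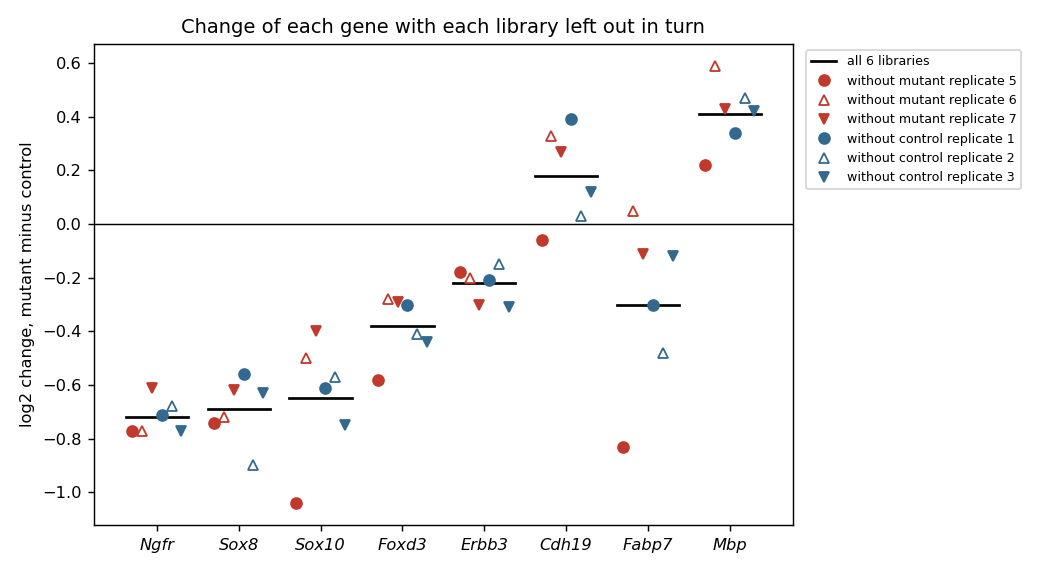
Log2 change of each gene with all 6 libraries (black line) and with each library left out in turn (symbols: red for a mutant, blue for a control left out). Leaving out mutant replicate 5 (filled red circles) moves Sox10 to -1.04 and Fabp7 to -0.83, while Ngfr stays between -0.77 and -0.61.

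In an exact two-sided permutation test on the CPM values of 3 against 3 libraries, whose smallest possible p is 0.1, Ngfr and Sox8 gave 0.1. Any gene whose groups do not overlap gives that value, and 27.8% of all genes did not overlap in either direction. The 0.1 therefore restates the lack of overlap and is no further support. Erbb3 and Mbp gave 0.2 in the same exact permutation test, Sox10 and Foxd3 0.3, Cdh19 0.6 and Fabp7 0.9, before any adjustment for the 8 comparisons. In the authors' filtered table, whose criterion no source used here states and which lists 11.1% of all genes, Ngfr and Sox8 were the 2 of the 8 genes listed.

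Per kilobase of annotated exon, Fabp7, Erbb3 and Ngfr were the most abundant of the 8 and Foxd3 and Cdh19 the least. In the mutants the level was 15.2 ± 11.1 CPM per kb for Fabp7, 15.1 ± 1.39 for Erbb3 and 13.9 ± 1.80 for Ngfr (SD, n = 3), which did not differ beyond their spread. In the controls Ngfr stood at 23.0 ± 1.46 CPM per kb, above Erbb3 at 17.7 ± 2.01, which did not differ from Fabp7 at 16.5 ± 4.31 beyond the spread. Mbp, Sox10 and Sox8 came next in the mutants at 3.36 ± 0.901, 3.14 ± 1.78 and 2.65 ± 0.260 CPM per kb, with overlapping spreads. In the controls these were 2.44 ± 0.218 CPM per kb for Mbp, 4.70 ± 0.640 for Sox10 and 4.58 ± 1.14 for Sox8, and only Mbp stood apart. Foxd3 and Cdh19 were last, at 1.04 ± 0.375 and 1.03 ± 0.393 CPM per kb in the mutants and 1.45 ± 0.203 and 0.877 ± 0.297 CPM per kb in the controls.

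A wider list of Schwann lineage genes, 20 of 22 measured, held no called gene and was often highest, among the mutants, in replicate 5. None of the 20 was called in limma over all genes (1 lower and 0 higher at an unadjusted p below 0.05, as were 8.07% and 13.4% of all genes). The median log2 change was -0.10, against 0.04 for all genes. Dhh, a hedgehog ligand of Schwann cells, measured 3.63, 2.13 and 0.596 CPM in mutants 5, 6 and 7, against 1.92, 2.37 and 2.33 CPM in controls 1, 2 and 3. For Dhh, mutant replicate 5 was the highest of the 6 libraries and replicate 7 the lowest. Egr2, the factor that turns on myelination, averaged 1.98 ± 0.766 CPM in the mutants and 1.79 ± 0.691 CPM in the controls (SD, n = 3 each).

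The 3 smallest p in that list belonged to Itga4, Pmp22 and Pou3f1, none of them called. Itga4, an integrin of neural crest cells that other cell types also make, averaged 51.2 ± 7.70 CPM in the mutants and 84.2 ± 19.6 CPM in the controls (log2 change -0.69 ± 0.18, limma, adjusted p = 0.0929). Pmp22, a peripheral myelin protein also made by mesenchyme, averaged 31.1 ± 7.86 CPM in the mutants and 44.5 ± 11.6 CPM in the controls (adjusted p = 0.237, limma). Pou3f1, a factor of promyelinating Schwann cells, lay at 0.783 ± 0.136 CPM in the mutants and 1.36 ± 0.313 CPM in the controls (adjusted p = 0.274, limma).

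**Figure D4:**
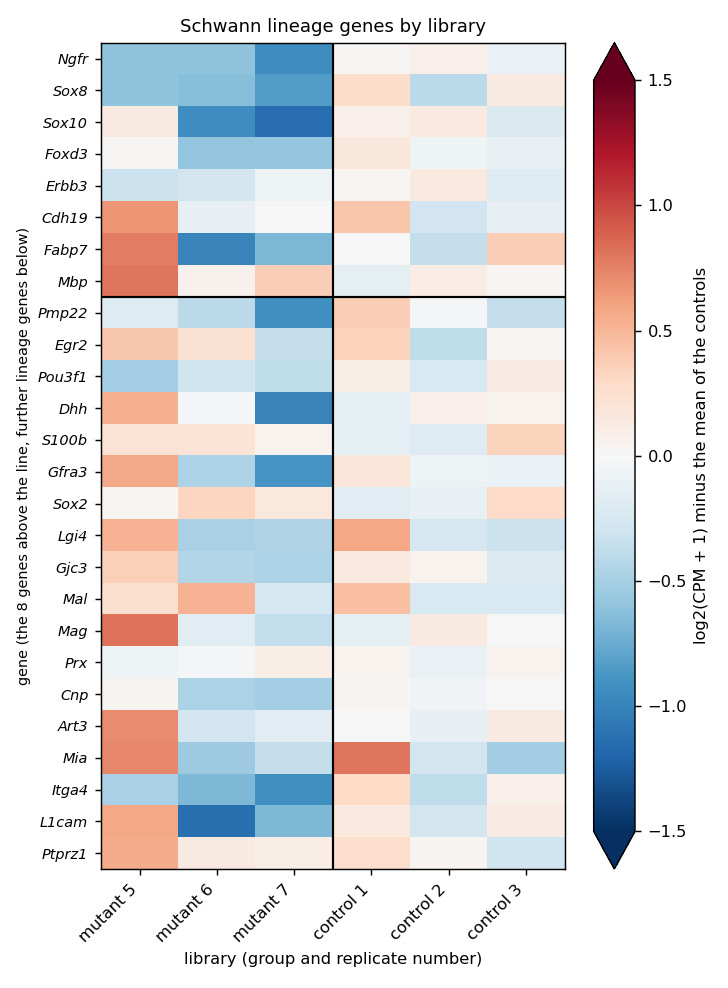
Each row is a gene, with the 8 genes above the line and further Schwann lineage genes below, and each column a library, mutants left. Colour is log2(CPM + 1) minus the mean of the controls; the column of mutant replicate 5 is redder than those of replicates 6 and 7 for most rows, and it holds the highest mutant value for 6 of the 8 genes.

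Mutant replicate 5 was the highest mutant library for 6 of the 8 genes and for 16 of the 20 further lineage genes, where 38.2% of all genes had it highest. Neuron markers shared that order most fully, with 12 of 13 highest in mutant replicate 5. Tubb3, the tubulin of young neurons, measured 119.4, 19.8 and 49.0 CPM in mutants 5, 6 and 7, against 79.6, 65.5 and 110.6 CPM in controls 1, 2 and 3. Stmn2, a growth protein of axons, measured 121.9, 25.6 and 51.0 CPM in mutants 5, 6 and 7, against 79.9, 58.2 and 122.1 CPM in controls 1, 2 and 3. The neuron list had 0 called genes in limma and a median log2 change of -0.67. At an unadjusted p below 0.05, 2 of its 13 genes were lower and 0 higher, as were 8.07% and 13.4% of all genes. Its smallest p belonged to Dcx, which averaged 74.7 ± 36.0 CPM in the mutants and 113.0 ± 21.0 CPM in the controls (adjusted p = 0.212, limma), followed by Stmn3 (log2 change -1.04) and Nefl (-1.36). Within the controls the neuron markers were highest in replicate 3, where Fabp7 was also highest and Sox10 was lowest. Ngfr, Sox10, Erbb3 and Mbp were highest in control replicate 2, and Sox8, Foxd3 and Cdh19 in control replicate 1. Mutant replicate 5 was also the highest mutant for 7 of 12 neurotrophin genes, 5 of 9 neuregulin and ErbB genes and 5 of 11 brain markers. It was so for 4 of 9 palatal mesenchyme markers, 2 of 10 neural crest factors and 1 of 10 muscle markers. For epithelial and melanocyte markers it was so for 0 of 8 and 0 of 3. The part of nerve content in the glial values was not tested.

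**Figure D5:**
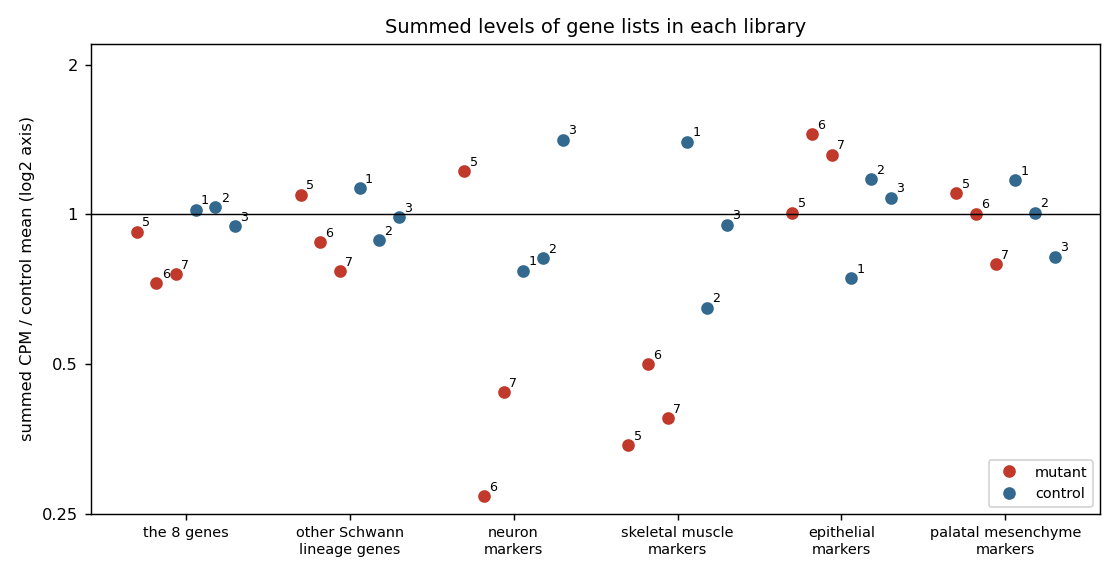
Summed CPM of each gene list in each library divided by the mean of the 3 controls (vertical axis, log2 scale), mutants left in red, controls in blue, with replicate numbers. Neuron markers of mutants 6 and 7, with sums of 219.6 and 355.5 CPM, lie below all controls, while mutant 5, with 988.5 CPM, lies among them; skeletal muscle markers lie below all controls in all 3 mutants.

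The neurotrophins, the ligands of the receptor that Ngfr encodes, and their receptors showed 0 called genes among 12 measured in limma. At an unadjusted p below 0.05, 1 was lower and 0 were higher, as were 8.07% and 13.4% of all genes. The median log2 change was -0.09. Ntrk2, the receptor of brain-derived neurotrophic factor, measured 45.2, 44.2 and 44.9 CPM in mutants 5, 6 and 7, against 76.1, 61.5 and 44.8 CPM in controls 1, 2 and 3 (log2 change -0.40 ± 0.17, limma, adjusted p = 0.216). The mutants were close together at the level of the lowest control. Lingo1, a partner of Ngfr in Nogo receptor complexes, averaged 14.7 ± 5.10 CPM in the mutants and 18.6 ± 2.98 CPM in the controls (adjusted p = 0.397, limma), and Ntf5, a ligand of Ntrk2, 8.79 ± 3.08 CPM in the mutants and 6.33 ± 2.03 CPM in the controls (adjusted p = 0.436, limma; SD, n = 3 each). None of the ligands or coreceptors of the list passed the test that Ngfr passed.

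Of 10 neural crest factors, 0 were called in limma, with a median log2 change of 0.06. At an unadjusted p below 0.05, 2 were lower and 1 was higher, as were 8.07% and 13.4% of all genes. Sox5, a SoxD factor of cartilage and neural crest, averaged 40.5 ± 14.2 CPM in the mutants and 21.2 ± 3.42 CPM in the controls (log2 change 0.87 ± 0.22, limma, adjusted p = 0.0926). All 3 mutants were above all controls for Sox5, as for 17.1% of all genes. Twist1, a factor of cranial mesenchyme, averaged 77.5 ± 17.9 CPM in the mutants and 102.7 ± 15.3 CPM in the controls (adjusted p = 0.216, limma), and Snai2, a repressor active in migrating crest cells, 29.7 ± 5.08 CPM in the mutants and 36.6 ± 2.57 CPM in the controls (adjusted p = 0.233, limma; SD, n = 3 each).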

How the data were processed

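Soft palate RNA of mouse embryos was sequenced in 3 mutant and 3 control libraries. The submitters' processing notes name STAR and the build mm10; how genes were counted, with which annotation and strand, is stated in no source used here. The deposited values are CPM with a constant of 0.0001 added, as found from the values, which was removed; each library then summed to 1000000. Columns of samples outside the series numbered 0. Depth was estimated from the step between low values; 63.7 to 67.1% of them lay within 0.02 of a whole number of reads, so whole reads were not recovered and no count model was fitted.

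Groups were compared on log2(CPM + 1) with limma 3.58.1 (R 4.3.3), letting the prior variance follow the mean level. No filter was used, and p-values of all 21938 genes were adjusted together (Benjamini-Hochberg). A log2 change on this scale understates the change of low genes. The test was also run on simulated libraries, in which genes varied independently and with a common relative spread. Spread in these libraries need not be of that kind. That run, whose outcome is not reported here, is therefore no support for the calls. Single genes were also compared by exact permutation of the CPM values (scipy). Positions and exon lengths came from GENCODE vM21 (GRCm38), and promoters from RefSeq (GRCm38.p6).

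The 8 genes and the gene lists were chosen with earlier results of these data known. The text names the 8 genes, Ctnnb1 and Osr2, and from each list the 3 smallest p among genes with a mean of at least 1 CPM beside defining genes; genes most like Sox10 were ranked by Pearson's r. Alternatives changed the pseudocount, filter, scaling, prior variance and threshold, and left out each library. Some genes of the lists are not reported here by name.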

Additional observations from a re-analysis of the deposited data

How the results depend on the processing

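Under the pseudocount of 0.1 CPM, the filter at a mean of 1 CPM and both rescalings, all 8 genes kept their direction and Ngfr its call. Over all genes 105 were called (43 higher, 62 lower); rescaling to the upper quartile gave 141 (77 higher, 64 lower), robust prior variance 174 and a threshold of 0.1 on the adjusted p 999. Without a trend in the prior variance limma called 0 genes (4516 at an unadjusted p below 0.05), and so 0 of the 8: Ngfr kept its log2 change of -0.72 at an adjusted p of 0.0866. Leaving out 1 library at a time gave 0 to 452 calls over all genes (2916 to 5002 at an unadjusted p below 0.05) and 0 to 2 among the 8, both of them, Ngfr and Sox8, without control replicate 2. Over these fits the log2 change ranged from -0.77 to -0.61 for Ngfr, from -0.90 to -0.56 for Sox8, from -0.06 to 0.39 for Cdh19 and from -0.83 to 0.05 for Fabp7, so the last 2 turned. Cdh19 turned without mutant replicate 5 and Fabp7 without mutant replicate 6. The cause of these differences was not tested. Of 96 values of the 8 genes under alternatives, 87 kept direction and side of the threshold. For the 7 genes not called in the main fit, this meant staying uncalled. Of the remaining values, 6 lost a call, all of them of Ngfr, 1 gained a call (Sox8) and 2 turned in direction. No paired analysis was possible because the groups share no replicate number. Depth limits Foxd3 and Cdh19 most, at 25 to 78 reads in each library.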

Other observations

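Genes of melanocytes and brain share lineage or markers with peripheral glia. Of 9 melanocyte markers, another derivative of the neural crest, 3 were measured and the others were not analysed here. Dct, an enzyme of pigment synthesis, lay at 0.978, 1.14 and 0.530 CPM in mutants 5, 6 and 7, against 0.640, 0.299 and 0.467 CPM in controls 1, 2 and 3. Kit, a receptor of melanoblasts and other cells, averaged 59.4 CPM in the mutants and 41.2 CPM in the controls (log2 change 0.54 ± 0.21 SE, limma, adjusted p = 0.188), and Mitf averaged 7.34 ± 1.70 CPM in the mutants and 7.47 ± 1.15 CPM in the controls (SD, n = 3 each). None of the 3 was called in limma (1 higher at an unadjusted p below 0.05, as were 13.4% of all genes).

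Of 12 brain markers 11 were measured and 0 were called in limma (0 at an unadjusted p below 0.05, where 21.4% of all genes passed). Their summed level was 30.8, 21.7 and 63.4 CPM in mutants 5, 6 and 7, against 41.0, 34.0 and 16.0 CPM in controls 1, 2 and 3. The smallest p belonged to Otx2, a forebrain and midbrain factor, which measured 5.62, 7.53 and 19.1 CPM in mutants 5, 6 and 7, against 8.40, 5.89 and 4.27 CPM in controls 1, 2 and 3 (limma, adjusted p = 0.429). Sox1, a factor of neural progenitors, measured 3.59, 1.06 and 0.398 CPM in mutants 5, 6 and 7, against 0.960, 0.599 and 0.389 CPM in controls 1, 2 and 3, and Aldh1l1, an astrocyte enzyme, averaged 1.48 ± 0.375 CPM in the mutants and 1.26 ± 0.552 CPM in the controls (SD, n = 3 each). Sox1, like Fabp7, was highest in mutant replicate 5, and Otx2 was highest in mutant replicate 7. The part of brain tissue in the value of Fabp7 was not tested. Olig2, a factor of brain glia, lay at 0.570, 0.0760 and 0.862 CPM in mutants 5, 6 and 7, against 1.44, 0.0998 and 0.0779 CPM in controls 1, 2 and 3, and Olig1 was at 0 in control replicate 3.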
